A study of Rattus norvegicus with 8 samples.

Results

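The nuclear genes of mitochondrial oxidative phosphorylation were read on arrays of rat brain (Wistar, adult males) taken after an injection into the striatum, the input nucleus of the basal ganglia. Members were all probe sets named by 1 gene symbol that starts with Ndufa, Ndufb, Ndufs, Ndufv, Uqcr, Sdh, Atp5 or Cox4 to Cox8, whatever their values. The rule found 99 of the 31042 probe sets on the array that are no controls, for 88 of 14217 genes. Of these, 93 probe sets for 86 genes lay above the level filter and were tested, among 18625 probe sets and 10539 genes in all. At the filter, the probe set of Cox6b2 was just inside with a mean intensity of 26.8 and one of Atp5if1 just outside with 25.6. Another 7 probe sets carry a member's name beside a second symbol, among them those for Uqcrb, Ndufa10 and Cox7a2, and are not members.

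The study used 8 Affymetrix Rat Genome 230 2.0 arrays. On 4 of them the injected fluid, 5 µl in volume, held 50000000 particles of baculovirus, an insect virus used to carry genes into mammalian cells, made inactive by exposure to ultraviolet light (254 nm, 1 hour). On the other 4 the same volume of phosphate-buffered saline (PBS) was injected alone. All rats weighed 250 to 300 g, and their age is not given. Tissue was taken 48 hours after injection. Both groups share the injection itself, for which 2 sites are given. The design text names 7 rats and injection of PBS on the opposite side, and the labels tie no array to a rat. The p-values below therefore measure the spread between these samples, some of which may share an animal. The tissue is labelled only as brain, and how much around the injection was dissected is not stated.

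Oxidative phosphorylation turns the electrons of NADH and succinate into a proton gradient across the inner mitochondrial membrane and uses that gradient to make ATP. Complex I takes electrons from NADH and complex II from succinate, complex III passes them to cytochrome c, complex IV hands them to oxygen, and complex V is the ATP synthase. Neurons depend on this pathway to restore ion gradients after firing. Many of the nuclear genes for its subunits are known targets of the factors NRF1, GABP, a member of the ETS family, and YY1, and several subunits of complex IV exist in a form used in most tissues and a form of muscle, lung or testis.

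Promoters of a few members are shown because motifs of these factors were found more often in the members' promoters than in all promoters, although most members lack any given one. RefSeq promoters of 300 bases, from 250 before to 50 after the gene's start in the build GRCr8, matched 80 of the 88 member genes. The letters GCGC, any base and then TGCGC, the core of the NRF1 site, were present on either strand in 17 of these (21.3%), against 4.25% of all 33469 promoters and 7.86% of the 13243 promoters of genes on the array. CCGGAAG, the core of ETS sites, was present in 25 (31.3%), against 8.75% and 14.3%. AAGATGGC, the core of the YY1 site, was present in 17 (21.3%), against 3.17% and 4.49%. At least 1 of these 3 motifs was present in 48 of the 80, against 14.6% and 23.4%. NRF1 letters were found for 6 of 30 genes of complex I, 2 of 6 complex I assembly factors, 3 of 8 genes of complex II, 1 of 6 of complex III, 0 of 15 of complex IV and 5 of 15 of complex V. These are matches of letters only, and the matches of different motifs may overlap.

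Promoters of 4 members are printed from 5′ to 3′ with each match to these motifs in capitals. Atp5me, a subunit of the ATP synthase membrane part (chr14:1464610-1464909, + strand), holds all 3 motifs. Uqcrc1, a core subunit of complex III (chr8:118467973-118468272, + strand), holds the NRF1 and YY1 letters. Ndufb4, in the membrane arm of complex I (chr11:76568928-76569227, + strand), holds the NRF1 letters near its start. Sdha, the flavoprotein of complex II (chr1:30764303-30764602, + strand), holds the NRF1 letters at 3 positions.
Atp5me: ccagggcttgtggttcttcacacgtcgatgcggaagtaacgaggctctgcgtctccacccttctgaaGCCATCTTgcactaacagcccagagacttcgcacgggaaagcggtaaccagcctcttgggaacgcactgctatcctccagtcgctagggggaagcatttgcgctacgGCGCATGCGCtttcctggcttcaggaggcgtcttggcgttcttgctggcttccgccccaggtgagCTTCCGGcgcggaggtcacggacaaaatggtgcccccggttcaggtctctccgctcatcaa
Uqcrc1: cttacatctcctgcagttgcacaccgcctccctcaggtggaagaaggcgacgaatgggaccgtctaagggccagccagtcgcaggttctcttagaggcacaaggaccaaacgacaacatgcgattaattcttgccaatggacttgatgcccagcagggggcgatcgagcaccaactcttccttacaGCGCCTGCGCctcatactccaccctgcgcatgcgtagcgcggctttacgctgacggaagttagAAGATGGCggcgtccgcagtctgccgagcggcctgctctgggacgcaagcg
Ndufb4: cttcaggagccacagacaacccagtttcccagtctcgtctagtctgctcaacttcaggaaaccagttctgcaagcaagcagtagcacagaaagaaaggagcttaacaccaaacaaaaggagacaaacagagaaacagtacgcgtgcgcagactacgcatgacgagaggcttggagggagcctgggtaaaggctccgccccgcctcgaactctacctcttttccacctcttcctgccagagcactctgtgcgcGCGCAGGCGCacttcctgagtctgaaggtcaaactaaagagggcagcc
Sdha: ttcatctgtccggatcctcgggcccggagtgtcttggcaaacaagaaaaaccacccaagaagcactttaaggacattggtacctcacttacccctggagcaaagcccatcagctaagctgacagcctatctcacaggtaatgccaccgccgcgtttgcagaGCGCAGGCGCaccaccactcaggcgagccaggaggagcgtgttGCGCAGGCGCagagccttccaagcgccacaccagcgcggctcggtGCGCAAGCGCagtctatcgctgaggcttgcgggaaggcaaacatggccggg

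The striatal projection neuron gene Ppp1r1b, which encodes DARPP-32, lay between 976 and 1393 in intensity and the opioid peptide gene Penk between 1314 and 1742. Arrays had been scaled before deposit to the same trimmed mean, and the correlation of any 2 arrays lay between 0.970 and 0.986. PBS replicate 4 stood apart for the choroid plexus gene Ttr, at 47.7 against 1563 to 1968 on the other arrays. The choroid plexus genes Folr1 and Kl were also lowest there, at 31.1 and 0.96. Aqp1 and Kcnj13, at 56.6 and 7.00, lay within the range of the other arrays. Kl and Kcnj13 were below the level filter. No probe set of the whole table passed an adjusted p of 0.05 in limma, 0% of those tested, while 468 (2.51%) had a higher and 786 (4.22%) a lower mean at an unadjusted p under 0.05.

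The question was whether the inactivated vector changed the oxidative phosphorylation genes beyond what the injection did. The genes that encode the respiratory complexes of brain mitochondria had nearly the same level in both groups. Of 86 member genes, each read by its brightest probe set, 44 had a higher and 42 a lower mean after inactivated baculovirus, which is 51.2% higher against 55.7% of all genes tested. The median log2 difference was 0.0055 over the members and 0.015 over all genes, on the scale of log2(intensity + 16). The split of directions depended on the scaling. After centring each array on its median, 28 members were higher and 58 lower (against 45.5% higher over all genes), and after quantile normalization 55 were higher and 31 lower (against 55.3%), with medians of -0.023 and 0.016. Counts of higher and lower genes are those of the values as deposited unless a scaling is named. No member passed an adjusted p of 0.05 in limma (0 of 86, against 0% of all genes), and the lowest adjusted p of any was 0.686. At an unadjusted p under 0.05, 3 members were higher, against 2.66% of all genes, and 0 lower, against 3.92% (6.58% in both directions). Of the 3, Cox6b2 lay above the level filter only in the group where it was high, and nothing is read from this count.

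The arrays were precise enough to bound most differences. For 79 of 86 genes (91.9%) the 95% interval lay inside a 1.25-fold change of intensity + 16 in either direction, against 55.7% of all genes tested. For dim genes the same bound on this scale allows a larger change of the intensity itself. Most members are bright, and bright genes have narrow intervals. Among genes with a mean intensity above 300 the share was 69 of 69 members against 82.4% of all such genes. These sets are not matched in brightness, since their median mean intensities were 1012 for the members and 498 for all such genes. The median over these 69 was -0.0020, with 31 higher and 38 lower. The median interval reached 0.17 to either side for the members. For 7 genes the interval reached past the 1.25-fold bound, through its width or through a difference away from 0. Their mean intensities lay between 26.8 and 135. They are Ndufs4, Ndufaf5, Cox5a, Cox6a2, Cox4i2, Cox6b2 and the pseudogene Cox6c-ps1.

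**Figure D1:**
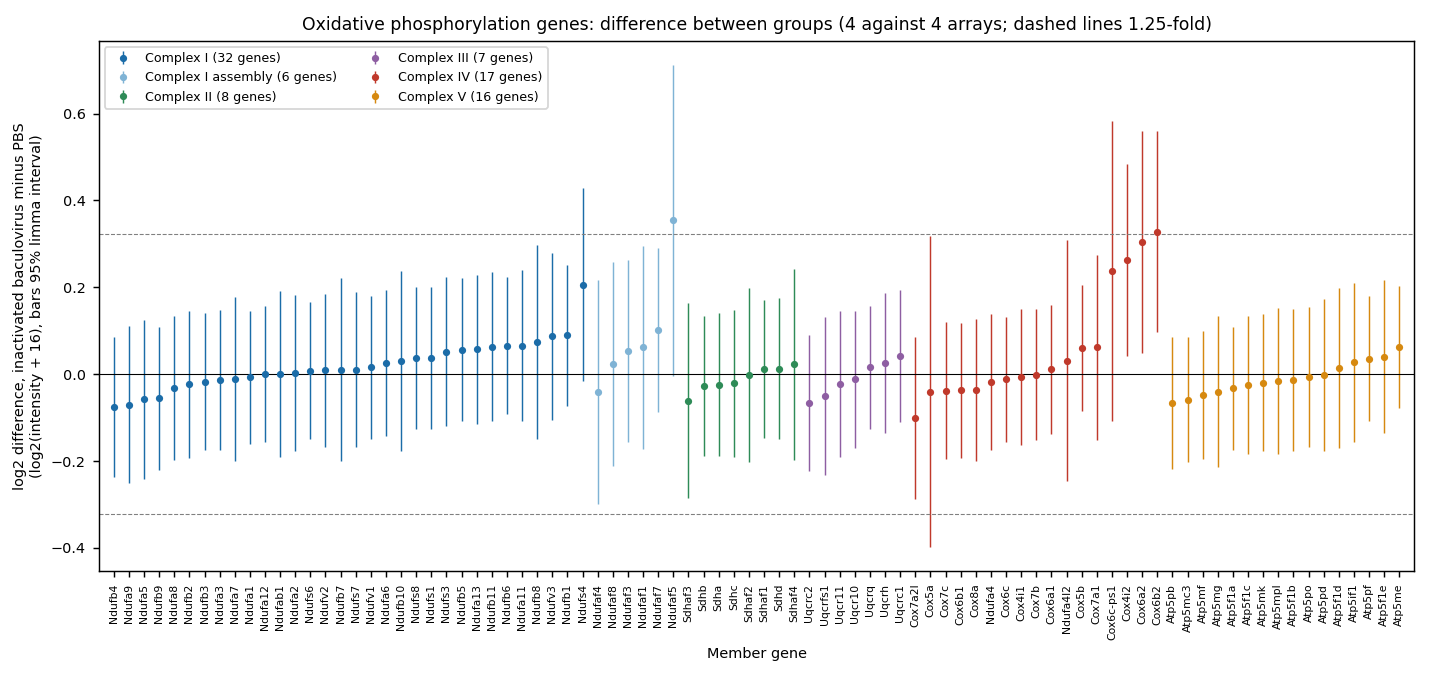
Log2 difference between inactivated baculovirus and PBS arrays for each of the 86 member genes tested, grouped by complex, with 95% limma intervals. Most points lie close to 0 with intervals inside the dashed lines of a 1.25-fold change of intensity + 16, and the highest points are Ndufaf5 and the complex IV genes Cox6b2, Cox6a2 and Cox4i2.

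Complex I, the largest complex, had 20 genes with a higher and 12 with a lower mean and a median log2 difference of 0.011, against 13 higher and 19 lower after median centring and 23 and 9 after quantile normalization. The groups overlapped for all 32 genes, where 1.87% of all genes tested had higher and 2.31% lower groups without overlap. All 6 genes of its catalytic core that were tested had a higher mean as deposited, by no more than 0.052, but only 3 of them after median centring. The core gene Ndufs1 measured 554, 524, 540.0 and 452 on baculovirus replicates 1 to 4 and 487, 516, 492 and 514 on PBS replicates 1 to 4. Its highest and its lowest value both belonged to baculovirus arrays, replicates 1 and 4. The log2 difference was 0.037 (95% interval -0.13 to 0.20, limma adjusted p = 0.939).

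Ndufs4, an accessory subunit of the electron input module, had the smallest p of complex I. It measured 127, 149, 111 and 139 on baculovirus replicates 1 to 4 and 98.9, 108, 121 and 118 on PBS replicates 1 to 4. The groups overlapped, since baculovirus replicate 3 lay below PBS replicates 3 and 4. The log2 difference was 0.21 (95% interval -0.016 to 0.43, limma adjusted p = 0.742). Next among genes with a higher mean was Ndufb1, a small subunit of the membrane arm, at 0.090 (95% interval -0.073 to 0.25, limma adjusted p = 0.822). The smallest p among genes with a lower mean belonged to Ndufb4 at -0.076 (95% interval -0.24 to 0.085, limma adjusted p = 0.856), whose promoter is printed above. Ndufa9, which sits near the quinone site, was at -0.071 (95% interval -0.25 to 0.11, limma adjusted p = 0.882).

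Assembly factors of complex I are not part of the finished enzyme, and 5 of the 6 tested had a higher mean (4 after median centring), with a median of 0.057. Ndufaf5, which modifies a core subunit during assembly, had the largest difference of all members. It measured 176, 167, 134 and 132 on baculovirus replicates 1 to 4 and 89.1, 157, 85.9 and 142 on PBS replicates 1 to 4. PBS replicates 1 and 3 were low, and PBS replicates 2 and 4 lay within the range of the baculovirus arrays. The log2 difference was 0.35 (95% interval -0.0040 to 0.71, limma adjusted p = 0.737). The pair of probe sets for Ndufaf7, a methyltransferase of complex I assembly, stood at 0.10 and -0.090 and so had opposite directions.

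Complex II, which also works in the citric acid cycle, had 3 genes higher and 5 lower with a median of -0.012, against 0 and 8 after median centring and 4 and 4 after quantile normalization. Sdha measured 530.3, 552, 585 and 511 on baculovirus replicates 1 to 4 and 489.7, 577, 579 and 574 on PBS replicates 1 to 4. PBS replicate 1 was the lowest array, and the groups overlapped. Its log2 difference was -0.024 (95% interval -0.19 to 0.14, limma adjusted p = 0.968). The iron-sulfur subunit Sdhb stood at -0.027 (95% interval -0.19 to 0.13) and the membrane anchor Sdhd at 0.012 (95% interval -0.15 to 0.17). The other probe set of Sdhd had the same direction, at 0.060. Among assembly factors, Sdhaf3 stood at -0.061 (95% interval -0.28 to 0.16) and Sdhaf4 at 0.022 (95% interval -0.20 to 0.24). The lowest adjusted p in complex II was 0.928.

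Complex III had 3 genes higher and 4 lower with a median of -0.012, against 1 and 6 after median centring and 4 and 3 after quantile normalization. Uqcrc1 measured 923, 1064, 1003 and 1122 on baculovirus replicates 1 to 4 and 1009, 942, 1018 and 1016 on PBS replicates 1 to 4. PBS replicate 2 was lower than the other PBS arrays, and baculovirus replicate 1 was the lowest of all. Its log2 difference was 0.041 (95% interval -0.11 to 0.19, limma adjusted p = 0.928). Its partner core subunit Uqcrc2 stood at -0.067 (95% interval -0.22 to 0.089, limma adjusted p = 0.870), while the other probe set of Uqcrc2 had the opposite direction at 0.014. The hinge protein gene Uqcrh stood at 0.026 (95% interval -0.14 to 0.19) and the Rieske iron-sulfur protein gene Uqcrfs1 at -0.051 (95% interval -0.23 to 0.13).

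Complex V had 5 genes higher and 11 lower with a median of -0.015, against 3 and 13 after median centring and 7 and 9 after quantile normalization. All 16 intervals lay inside a 1.25-fold change of intensity + 16. The catalytic beta subunit gene Atp5f1b measured 1634, 1941, 1833 and 1926 on baculovirus replicates 1 to 4 and 1725, 1719, 2035 and 1930.5 on PBS replicates 1 to 4. Baculovirus replicate 1 was the lowest array and PBS replicate 3 the highest. The log2 difference was -0.014 (95% interval -0.18 to 0.15, limma adjusted p = 0.986). Of the 5 genes of the F1 part, which makes ATP, 2 were higher and 3 lower, and of the 10 genes of the membrane part and stalk 2 were higher and 8 lower. In the latter, Atp5me stood at 0.062 (95% interval -0.078 to 0.20, limma adjusted p = 0.864) and the stalk gene Atp5pf at 0.035 (95% interval -0.11 to 0.18), while the stalk gene Atp5pb stood at -0.066 (95% interval -0.22 to 0.086, limma adjusted p = 0.868) and Atp5mc3, one of the genes for the rotating ring, at -0.059 (95% interval -0.20 to 0.085). The other probe set of Atp5me, with a mean intensity of only 29.3, had the opposite direction at -0.0071. Atp5if1, the inhibitor that keeps the enzyme from running backwards, stood at 0.027 (95% interval -0.16 to 0.21).

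Complex IV had 8 genes higher and 9 lower with a median of -0.0012. Of the 11 subunit genes used in most tissues that were tested, 2 were higher and 9 lower, with a median of -0.018, against 1 and 10 after median centring and 6 and 5 after quantile normalization. This count includes Ndufa4, which is named after complex I but is known as a subunit of complex IV. Cox4i1 measured 1387, 1684, 1498 and 1639 on baculovirus replicates 1 to 4 and 1527, 1469.6, 1687 and 1542 on PBS replicates 1 to 4. The groups overlapped over nearly their whole range, and the log2 difference was -0.0064 (95% interval -0.16 to 0.15, limma adjusted p = 0.994). Cox7a2l, which links complexes III and IV into larger assemblies, had the smallest p of those with a lower mean, at -0.10 (95% interval -0.29 to 0.085, limma adjusted p = 0.824). Cox7c followed at -0.038 (95% interval -0.20 to 0.12). Cox5a was read here by a dim probe set, because its brighter probe set carries a second symbol, and its interval ran from -0.40 to 0.32.

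The forms of other tissues that were tested were the part of complex IV with higher means. Of the 6 on the array, 5 were tested, all 5 had a higher mean under each of the 3 scalings, and their median log2 difference was 0.26 as deposited, 0.23 after median centring and 0.24 after quantile normalization. Genes of so low a level were often higher in general, with a higher mean for 63% of the 2323 genes tested that had a mean intensity up to 60. Cox6b2, Cox6a2 and Cox4i2 were the 3 members at an unadjusted p under 0.05 and the only 3 of 86 member genes whose groups did not overlap. Of these, Cox6b2 passed the level filter of 26.0 only through the baculovirus arrays, so its direction was tied to its being tested. It is also among the 5 forms above. The counts of 5 and 3 and the medians of the 5 are therefore given as a description. All genes with higher, non-overlapping groups made up 1.87% of those tested, and 2.32% of those with a mean up to 60. In the latter, an unadjusted p under 0.05 with a higher mean was reached by 3.57%. None of the 3 passed an adjusted p of 0.05 in limma. The size of their differences depends on the constant added before the log, with 0.51, 0.40 and 0.37 for Cox6b2, Cox6a2 and Cox4i2 after adding 1 and 0.15, 0.17 and 0.14 after adding 64.

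Cox6b2, the testis form of a subunit at the dimer interface of complex IV, measured 29.2, 33.0, 30.3 and 34.0 on baculovirus replicates 1 to 4 and 23.2, 20.4, 25.9 and 18.6 on PBS replicates 1 to 4. Every baculovirus array lay above PBS replicate 3, the highest of the PBS arrays. The means were 31.6 ± 2.26 with the vector and 22.0 ± 3.20 with PBS (mean ± SD, n = 4 per group), and the log2 difference was 0.33 (95% interval 0.10 to 0.56, limma adjusted p = 0.686). All 4 PBS arrays lay below the level filter of 26.0. It was the dimmest member tested, and it fell below the level filter when any of 3 baculovirus arrays was left out.

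Cox6a2, the heart and skeletal muscle form of subunit 6a, measured 45.6, 51.1, 64.4 and 47.5 on baculovirus replicates 1 to 4 and 45.2, 34.1, 34.3 and 42.8 on PBS replicates 1 to 4. Baculovirus replicate 3 was the highest array, and baculovirus replicate 1 lay only just above PBS replicate 1. The means were 52.1 ± 8.48 with the vector and 39.1 ± 5.72 with PBS (mean ± SD, n = 4 per group), and the log2 difference was 0.30 (95% interval 0.048 to 0.56, limma adjusted p = 0.714).

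Cox4i2, the form of subunit 4 known from lung and from oxygen-sensing cells, measured 39.1, 45.9, 46.1 and 39.7 on baculovirus replicates 1 to 4 and 32.4, 36.4, 29.3 and 33.5 on PBS replicates 1 to 4. All 4 baculovirus values exceeded that of PBS replicate 2, the highest PBS array. The means were 42.7 ± 3.82 with the vector and 32.9 ± 2.91 with PBS (mean ± SD, n = 4 per group), and the log2 difference was 0.26 (95% interval 0.042 to 0.48, limma adjusted p = 0.714).

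The forms of the same subunits used in brain were bright and level. Cox6b1 measured 1172 ± 76.8 with the vector and 1204 ± 89.1 with PBS (mean ± SD, n = 4 per group), and Cox6a1 1665 ± 118 with the vector and 1652 ± 103 with PBS (mean ± SD, n = 4 per group). Their log2 differences were -0.037 (95% interval -0.19 to 0.12) and 0.011 (95% interval -0.14 to 0.16). The other forms of other tissues stood closer to 0. Cox7a1, of heart and muscle, measured 51.6, 57.9, 49.3 and 59.9 on baculovirus replicates 1 to 4 and 46.8, 55.9, 52.2 and 51.7 on PBS replicates 1 to 4, with a log2 difference of 0.062 (95% interval -0.15 to 0.28). Ndufa4l2, a relative of Ndufa4, measured 41.9, 46.4, 53.0 and 53.7 on baculovirus replicates 1 to 4 and 35.6, 56.3, 56.7 and 42.8 on PBS replicates 1 to 4, with 0.031 (95% interval -0.25 to 0.31). Cox8b, of heart and muscle, was below the level filter, between 4.55 and 25.9 in intensity over the 8 arrays. Its mean was lower with the vector, at 9.09 ± 4.22 against 11.9 ± 9.35 with PBS (mean ± SD, n = 4 per group). Cox7b2, a relative of Cox7b, was also below the filter, at 20.4 ± 4.37 with the vector and 15.8 ± 4.44 with PBS (mean ± SD, n = 4 per group). The pseudogene Cox6c-ps1, whose signal may be shared with Cox6c and is uncertain, stood at 0.24 (95% interval -0.11 to 0.58, limma adjusted p = 0.787) with overlapping groups.

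Markers of muscle, of endothelial and mural cells and of microglia and macrophages were measured on the same arrays. The marker lists held none of testis or lung. Of 5 muscle markers 3 were above the filter, with 1 higher and 2 lower. The muscle creatine kinase gene Ckm stood at 0.15 (95% interval -0.12 to 0.42), Acta1 at -0.0098 (95% interval -0.23 to 0.21) and Tnni3 at -0.032 (95% interval -0.37 to 0.31), and the myoglobin gene Mb stayed between 3.63 and 14.3 in intensity. Of 7 endothelial and mural markers 6 were higher and 1 lower, with a median of 0.054. The endothelial markers Tie1, Kdr and Pecam1 stood at 0.28 (95% interval 0.037 to 0.52), 0.26 (95% interval -0.012 to 0.53) and 0.18 (95% interval -0.086 to 0.45), with overlapping groups, Cldn5 at 0.054 and Flt1 at -0.15. The mural markers Pdgfrb and Rgs5 stood at 0.038 and 0.00064. The mean level of the endothelial and mural markers was 0.047 ± 0.054 with the vector and -0.047 ± 0.029 with PBS (mean ± SD, n = 4 per group). All 7 tested microglia and macrophage markers had a higher mean, against 55.7% of all genes tested. Their median was 0.15, and 0 of these markers passed an adjusted p of 0.05 in limma. Among them Cx3cr1 had higher groups without overlap, at 0.23 (95% interval 0.0032 to 0.46, limma adjusted p = 0.737). The groups of the others overlapped. Ptprc, below the level filter, had means of 24.8 with the vector and 24.4 with PBS. The mean level of the tested microglia and macrophage markers was 0.088 ± 0.25 with the vector and -0.088 ± 0.26 with PBS (mean ± SD, n = 4 per group). The part of all these markers in the values of Cox6b2, Cox6a2 and Cox4i2 was not tested.

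**Figure D2:**
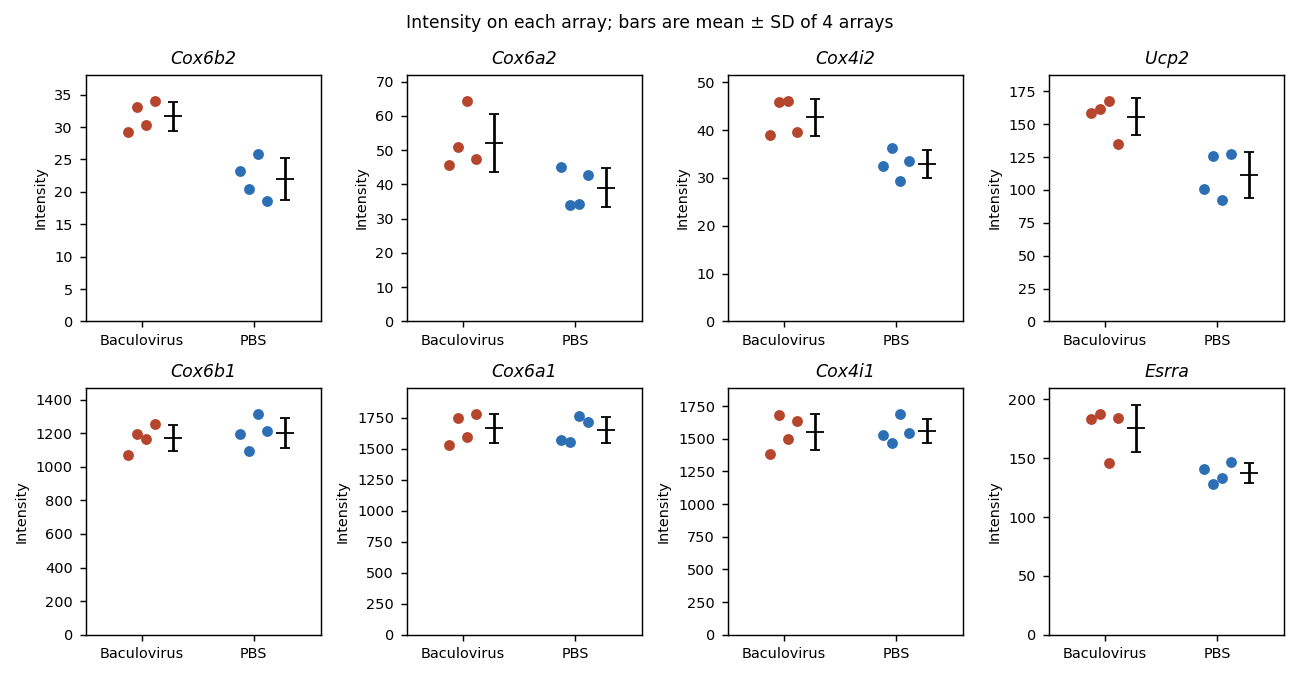
Intensity of 8 genes on each array, with points for the arrays of each group and the mean ± SD of 4 arrays beside them, each panel starting at 0. The baculovirus points of Cox6b2, Cox6a2, Cox4i2 and Ucp2 all lie above the PBS points, while Cox6b1, Cox6a1 and Cox4i1 overlap widely and Esrra touches at 1 array.

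The members were spread over the range of signal with most of them at the bright end. Their median mean intensity was 870 (n = 86), and all 69 above 300 stayed between -0.10 and 0.090 on the log2 scale. The 17 tested members up to 300 ran from -0.061 to 0.35, with 13 higher and 4 lower and a median of 0.062. All genes tested with a mean up to 300 had a median of 0.026, with 58.1% higher.

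**Figure D3:**
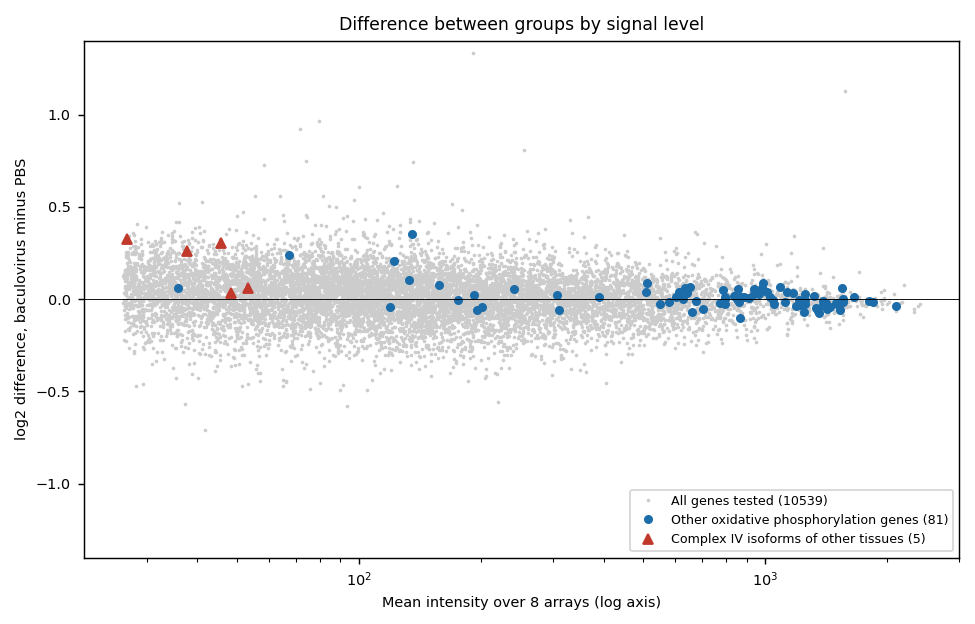
Log2 difference of each gene tested against its mean intensity over 8 arrays on a log axis, with the members drawn over all 10539 genes. The bright members form a narrow band around 0, and the 5 complex IV forms of other tissues lie at the dim end, all above 0.

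The members varied together from array to array more than they varied between groups. A level for each complex was the average log2 value of its genes on that array, relative to that gene's average on the 8 arrays. Complex I stood at -0.10, 0.055, -0.059 and 0.14 on baculovirus replicates 1 to 4 and 0.045, -0.12, 0.063 and -0.027 on PBS replicates 1 to 4. Complex III stood at -0.13, 0.046, -0.033 and 0.10 on baculovirus replicates 1 to 4 and 0.016, -0.10, 0.11 and 0.0030 on PBS replicates 1 to 4. Complex V stood at -0.14, 0.053, -0.032 and 0.10 on baculovirus replicates 1 to 4 and 0.018, -0.11, 0.093 and 0.015 on PBS replicates 1 to 4. In each of these 3 complexes the level was low on baculovirus replicate 1 and PBS replicate 2 and high on baculovirus replicate 4 and PBS replicate 3, and 1 high and 1 low array thus fell in each group.

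Single genes showed the same arrays. Of the 69 members with a mean intensity above 300, 38 had their lowest value on baculovirus replicate 1 and 21 on PBS replicate 2, and 37 had their highest on baculovirus replicate 4 and 24 on PBS replicate 3. Of 2368 other genes above 300, 19.2% and 22.6% had their lowest value on these arrays, and 23.5% and 24.0% their highest. The level of the bright members spanned 0.235 between the lowest and the highest array, against 0.0741 for all genes tested above 300. The pattern was not particular to the members. Among genes outside the name rule, 7 nucleotide and phosphate carriers and pores spanned 0.245. They stood at -0.14 on baculovirus replicate 1, 0.068 on baculovirus replicate 4, -0.098 on PBS replicate 2 and 0.11 on PBS replicate 3. The complex III gene Cyc1 spanned 0.246, other assembly and copper delivery factors 0.122 and citric acid cycle genes 0.0704. After quantile normalization the span of the bright members was 0.132, and the lowest array was then PBS replicate 2 in place of baculovirus replicate 1. Baculovirus replicate 4 was the highest before and after, while baculovirus replicate 1 now stood at -0.029 and baculovirus replicate 3 at -0.044. Ndufs1 went the other way, with its highest value on baculovirus replicate 1 and its lowest on baculovirus replicate 4. Sdha was lowest on PBS replicate 1 and highest on baculovirus replicate 3.

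Other measures of the arrays moved as follows. For beta-actin, the 3′ minus the 5′ control probe set on the log2 scale, a sign of RNA quality and labelling, was 0.36 on baculovirus replicate 1 and 0.72 on baculovirus replicate 4, its lowest and highest values, and 0.62 on PBS replicate 2 and 0.46 on PBS replicate 3. Neuron markers stood at -0.092 on baculovirus replicate 1, 0.015 on baculovirus replicate 4, 0.042 on PBS replicate 2 and -0.13 on PBS replicate 3. Striatal projection neuron markers stood at -0.23, 0.18, 0.13 and 0.050 on the same arrays, and muscle markers at -0.12, 0.31, -0.12 and 0.072. Several extremes of these markers lay on other arrays. Striatal projection neuron markers were lowest on PBS replicate 1 (-0.231) and highest on PBS replicate 4 (0.247). Neuron markers were highest on PBS replicate 4 (0.097), and muscle markers lowest on PBS replicate 1 (-0.139). Of 9 striatal projection neuron markers, 2 had a higher and 7 a lower mean with the vector. Their median log2 difference was -0.099, with Bcl11b at -0.39 and Ppp1r1b, among the higher ones, at 0.056. Of 9 neuron markers, 3 were higher and 6 lower, with a median of -0.027 and Nefl at -0.28. Bcl11b and Nefl had overlapping groups, each with a limma adjusted p of 0.686. The part of these measures in the level of the complexes was not tested. In tissue samples like these, fewer cells rich in mitochondria and less RNA per cell cannot be told apart.

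**Figure D4:**
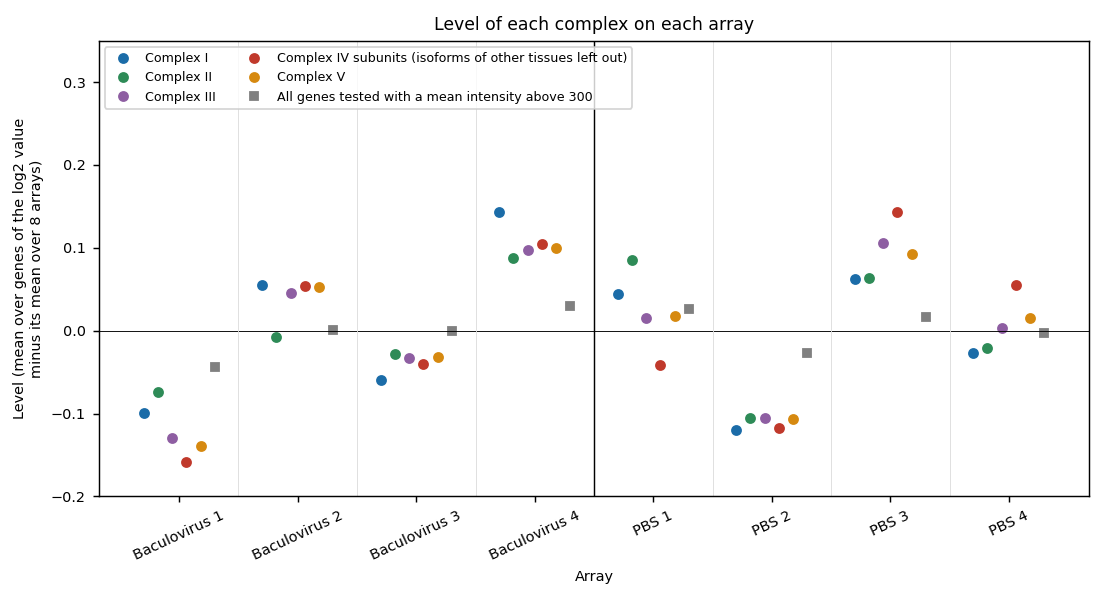
Level of each complex on each of the 8 arrays, as the mean over genes of the log2 value minus its mean over all arrays, with all bright genes in grey. All 5 drawn levels, complex IV without the forms of other tissues, lie below 0 on baculovirus replicate 1 and PBS replicate 2 and above 0 on baculovirus replicate 4 and PBS replicate 3.

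Other genes of the pathway, taken from a list of 75 symbols, were on the array for 68 symbols and tested for 64. Of these 30 had a higher and 34 a lower mean, with a median of -0.0016, and 0 passed an adjusted p of 0.05 in limma. The complex III gene Cyc1, which carries a haem and falls outside the name rule, stood at -0.0072 (95% interval -0.18 to 0.16). Of 24 assembly and copper delivery factors 15 were higher and 9 lower, of 13 citric acid cycle genes 5 and 8, and of 7 carriers and pores 1 and 6. The main nucleotide carriers Slc25a4 and Slc25a5 stood at -0.0024 and -0.010, and the citrate synthase gene Cs at -0.021 (95% interval -0.16 to 0.12). Pdha1, a subunit of pyruvate dehydrogenase named here after its values were seen, measured 796 ± 42.9 with the vector and 863 ± 5.48 with PBS (mean ± SD, n = 4 per group). Its groups did not overlap, with a log2 difference of -0.12 (95% interval -0.25 to 0.019, limma adjusted p = 0.755), against 2.31% of all genes with lower, non-overlapping groups.

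Among regulators, 5 of 11 tested were higher and 6 lower. Esrra, a nuclear receptor that drives mitochondrial genes, measured 184, 187, 146 and 185 on baculovirus replicates 1 to 4 and 141, 128, 133 and 147 on PBS replicates 1 to 4. Only baculovirus replicate 3 lay within the PBS range, and the log2 difference was 0.31 (95% interval 0.11 to 0.52, limma adjusted p = 0.686). Yy1 measured 184, 162, 166 and 142 on baculovirus replicates 1 to 4 and 191, 180.3, 222 and 184 on PBS replicates 1 to 4. It was lower on average with overlapping groups, at -0.23 (95% interval -0.44 to -0.023, limma adjusted p = 0.719). The coactivator gene Ppargc1a stood at -0.13 (95% interval -0.36 to 0.11, limma adjusted p = 0.824) and Tfam, which maintains mitochondrial DNA, at -0.0075 (95% interval -0.28 to 0.26, limma adjusted p = 0.996). Nrf1 was below the level filter, between 18.8 and 32.7 in intensity.

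Ucp2, an uncoupling protein that immune cells of the brain are known to express, had the smallest p of the list. It measured 159, 162, 168 and 135 on baculovirus replicates 1 to 4 and 100.5, 126, 92.6 and 127 on PBS replicates 1 to 4. The groups did not overlap, with baculovirus replicate 4 the lowest of its group. The log2 difference was 0.44 (95% interval 0.20 to 0.67, limma adjusted p = 0.686). On the same arrays the level of microglia and macrophage markers was 0.33, 0.026, 0.23 and -0.23 on baculovirus replicates 1 to 4 and -0.24, -0.37, 0.17 and 0.088 on PBS replicates 1 to 4, and their part in the value of Ucp2 was not tested. Dhodh, which feeds electrons from pyrimidine synthesis into the chain, stood at -0.27 (95% interval -0.57 to 0.020, limma adjusted p = 0.742).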

How the data were processed

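The deposited table holds 1 intensity per probe set and array on a linear scale, scaled by the authors so that the trimmed mean, leaving out 2% at each end, is 100.0 on each array, as read from the deposited values. The submitters' processing notes name GCOS and GCRMA, and which of them made these values is not stated there. Labelling used 1 of several kits, not named per array. Probe sets were named through GEO's platform annotation: 20826 carried 1 symbol, 436 several and 9780 none, and 57 controls were left out. Probe sets with a mean log2 value above the 40th percentile (an intensity of 26.0) were tested with limma 3.58.1 in R 4.3.3 on log2(intensity + 16), with a variance trend, two-sided, and Benjamini-Hochberg adjustment over 18625 probe sets. A gene was read by its probe set of highest mean. The number of arrays, 4 per group, limits the precision. No pair of arrays held identical values, which does not tell whether some of them share a rat.

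The members and lists were chosen with earlier results of these data known. Named genes were, for each complex, the pair with the smallest p in each direction and a core gene, together with the complex IV forms of other tissues and the main regulators, and other genes given are examples of their role. The NRF1, ETS and YY1 motifs and 2 alternatives (complex IV without forms of other tissues and pseudogene, and the beta-actin difference as covariate) were added after seeing the data. The procedure was tested on simulated data.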

Additional observations from a re-analysis of the deposited data

Results flagged for a closer look

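In 84 groups of 4 arrays examined, 6 held an array far from the other 3 of its group, and chance gives about 1 in 20 such groups. Sdhb was low on PBS replicate 2, at an intensity of 717, and so was Uqcrc1, at 942. The level of the complex I assembly factors was -0.10 on the same array, the lowest of its group. Atp5pf was low on baculovirus replicate 1, at 1103. Sdha was low on PBS replicate 1, at 489.7. Esrra was low on baculovirus replicate 3, at 145.8.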

How the results depend on the processing

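In limma, 0 probe sets of the table reached an adjusted p under 0.05 in each alternative run over all of them, while 468 were higher and 786 lower at an unadjusted p. The number higher was 263 after median centring, 918 with no level filter and 277 with a level filter at the 60th percentile. Leaving out 1 array at a time gave 260 (without baculovirus replicate 2) to 873 (without PBS replicate 4) higher and 449 to 1084 lower, at the same arrays. Of the members, 3 were higher at an unadjusted p, but 0 with the filter at the 60th percentile, which removes dim genes, and 0 without the forms of other tissues and the pseudogene, and 1 (without baculovirus replicate 2) to 4 (without PBS replicate 2) with 1 array left out. With group means removed, same-numbered arrays had correlations between -0.0051 and 0.016, against -0.11 to 0.075 over all pairs across the groups. This check was not shown to detect arrays that share a rat, so it does not settle whether samples are paired. The replicate block gave 439 higher and 733 lower probe sets and 4 higher members.

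Of 684 alternative values for 33 named genes, 40 in 14 genes changed sign, all of them small, and none passed. With median centring Sdhaf4 stood at -0.0063, Sdhd at -0.016 and Uqcrh at -0.0027. Quantile normalization gave 0.015 for Cox4i1, 0.0014 for Atp5f1b and 0.0012 for Tfam, and array weights 0.033, 0.013 and 0.016. Leaving out 1 array gave ranges that cross 0 for Sdhaf4 (-0.043 to 0.10), Sdhd (-0.031 to 0.064), Sdhaf3 (-0.13 to 0.021), Sdhb (-0.082 to 0.0031), Uqcrc1 (-0.0013 to 0.091), Uqcrh (-0.010 to 0.071), Uqcrfs1 (-0.087 to 0.0054), Cox7c (-0.074 to 0.011), Atp5pf (-0.0027 to 0.070), Cox4i1 (-0.047 to 0.046), Sdha (-0.081 to 0.0049), Atp5f1b (-0.048 to 0.040), Ndufa4l2 (-0.067 to 0.098) and Tfam (-0.11 to 0.098). The median over all members ran from -0.037 (without baculovirus replicate 4) to 0.043 (without baculovirus replicate 1). It ran from -0.035 to 0.049 in complex I, -0.049 to 0.016 in II, -0.066 to 0.034 in III, -0.038 to 0.049 in IV and -0.057 to 0.033 in V, so each of these medians changed sign. For the complex I assembly factors it ran from 0.0048 to 0.088. With 1 array left out, Cox6a2 stayed between 0.22 and 0.36 and Cox4i2 between 0.23 and 0.30. Cox6b2 could be tested in only 5 of these 8 runs and lay between 0.28 and 0.38 there. In those runs its baculovirus arrays kept it above the level filter, so nothing is read from its range. The cause of these changes was not tested. Dim probe sets close to the level filter limit what can be said of the complex IV forms of other tissues.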
